A study of Mus musculus with 6 samples.

Results

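Mgat5b, Nell2, Rbm24 and Rdh16f1 are 4 protein-coding genes out of 52636 genes in the mouse glomerulus count tables. They were picked because their counts were much lower in the aged than in the young libraries, so that difference is what chose them and is given below as a description without a test. The data are bulk RNA-seq of kidney glomeruli, the capillary tufts that filter blood, in 3 libraries labelled young and 3 labelled aged. All mice were untreated, and the labels give neither sex, strain nor age in weeks. Every animal was perfused with magnetic beads, which lodge in glomerular capillaries, and the bead-holding glomeruli were pulled out of digested kidney with a magnet and lysed. Poly(A) libraries were made with a stranded kit. The labels number the replicates without saying whether a library is 1 animal or a pool, so p-values measure the spread between these samples, which may be technical.

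The 4 genes belong to different systems. Mgat5b encodes a glycosyltransferase, known mostly from brain, that branches the O-mannose sugars carried by proteins such as dystroglycan, the matrix receptor. Nell2 encodes a secreted glycoprotein that binds Robo receptors and steers growing axons. Rbm24 encodes an RNA-binding protein that controls splicing and mRNA stability in heart and skeletal muscle, and Rdh16f1 encodes a short-chain dehydrogenase of the family that oxidises retinol on the way to retinoic acid. In the glomerulus, podocytes wrap the capillaries and form the filtration slit, endothelial cells line them, mesangial cells hold the tuft together, and smooth muscle and renin-producing cells sit in the arterioles at its pole.

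Coordinates are those of GENCODE M21 on GRCm38. Mgat5b (ENSMUSG00000043857) lies on chromosome 11 from 116918863 to 116986948 on the plus strand. Nell2 (ENSMUSG00000022454) lies on chromosome 15 from 95075230 to 95528559 on the minus strand. Rbm24 (ENSMUSG00000038132) lies on chromosome 13 from 46418434 to 46431095 on the plus strand. Rdh16f1 (ENSMUSG00000099009) lies on chromosome 10 from 127759787 to 127792694 on the plus strand. No exon of Mgat5b, Nell2 or Rbm24 lies within another gene on the same strand, and none of the 50-base windows of their longest coding transcripts (4209, 3171 and 3037 windows) occurs in a transcript of another gene. Rdh16f1 differs: all 2717 of its windows occur in transcripts of other genes, 9 genes in all, led by Rdh9, Rdh1 and Rdh16.

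The single annotated Rdh16f1 transcript joins a first exon of 464 bases, which lies wholly inside an exon of Rdh1, to exons 2 to 4, whose 2302 bases lie wholly inside exons of Rdh9. The 30 bases on each side of its first splice junction are printed because a read across that junction is what could tell the 3 genes apart. Capitals mark the upstream exon and lower case the downstream exon, read along the plus strand from GENCODE M21 transcripts.
Rdh16f1-201: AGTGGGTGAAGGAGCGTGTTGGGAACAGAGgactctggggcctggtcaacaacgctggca
Rdh1-201: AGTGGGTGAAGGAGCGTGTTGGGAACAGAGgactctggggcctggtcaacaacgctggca
Rdh9-201: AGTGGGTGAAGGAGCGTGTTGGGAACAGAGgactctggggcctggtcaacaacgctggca
The 60 letters are identical in the 3 transcripts, so a read lying within them fits each. In Rdh16f1 they come from 127760221 to 127760250 and from 127788608 to 127788637. In Rdh1 the downstream stretch is at 127762965 to 127762994, and in Rdh9 the upstream stretch is at 127776768 to 127776797. Rdh16f1 has 8088 bases of its own, from 127768298 to 127776385, which make up 24.6% of its span and contain 0 exonic bases.

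**Figure D1:**
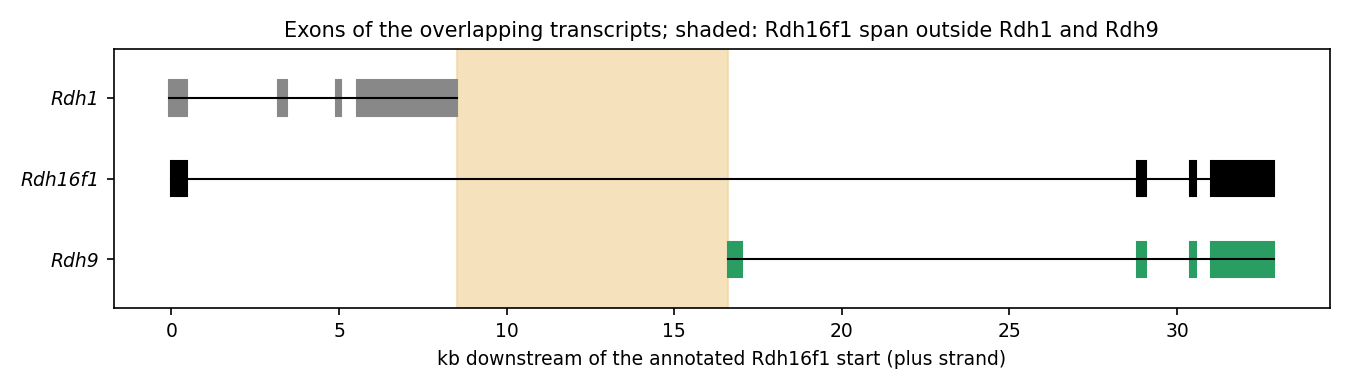
Exons (boxes) and introns (lines) of Rdh1, Rdh16f1 and Rdh9 against distance in kb from the annotated Rdh16f1 start. Every Rdh16f1 exon lies under an exon of Rdh1 or Rdh9, and the shaded 8088 bases that are outside both genes hold 0 exonic bases.

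The deposited counts at this locus sat almost entirely under the Rdh16f1 identifier. Rdh9 held 0 counts in all 6 libraries, and Rdh1 held 5, 0 and 2 counts in the young libraries, replicates 1 to 3, and 0, 1 and 0 counts in the aged libraries. Across the tables, of protein-coding genes whose exons lie at least 90% inside exons of genes on the same strand, as those of Rdh16f1 do, 68 of 163 held 0 counts in every library (41.7%). Of those inside the span of a same-strand gene without sharing an exon, 227 of 238 did (95.4%), and of those with no overlapping gene, 3718 of 12082 did (30.8%). The rule by which reads of overlapping genes were assigned is not given in the sources used here. If reads in overlapping spans were dropped, Rdh1 and Rdh9 would be near 0 whatever their expression. Counts under Rdh16f1 would then come from its own 8088 bases, which hold 0 exonic bases. Whether this was so was not tested, and the low counts of Rdh1 and Rdh9 are not read as low expression. From these counts Rdh16f1 cannot be told apart from Rdh1 and Rdh9. Values of Rdh16f1 below are values of the reads counted under that name.

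The libraries held between 21162919 and 26791412 gene counts. In the fit over all genes with edgeR's quasi-likelihood test, 15721 genes were tested and 6297 were called at a Benjamini-Hochberg adjusted p under 0.05, which is 40.1% of them. Of these, 3729 were higher in aged glomeruli (23.7%) and 2568 were lower (16.3%). The median log2 fold change over all tested genes was 0.01. The age groups therefore differed at many genes, and the members are read against that background.

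Levels are given as CPM, the count scaled to a library size adjusted by TMM. In all 4 genes, every aged library was below every young library. Among all tested genes, 3757 (23.9%) had aged libraries all below young ones, and since the genes were chosen on this contrast nothing is read from their number. By fitted log2 fold change, negative where aged was lower, the 4 genes ranked 10, 11, 15 and 16 from the lowest of the 15721 genes. The first percentile of all genes was at -1.64 and the lowest gene at -4.39.

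**Figure D2:**
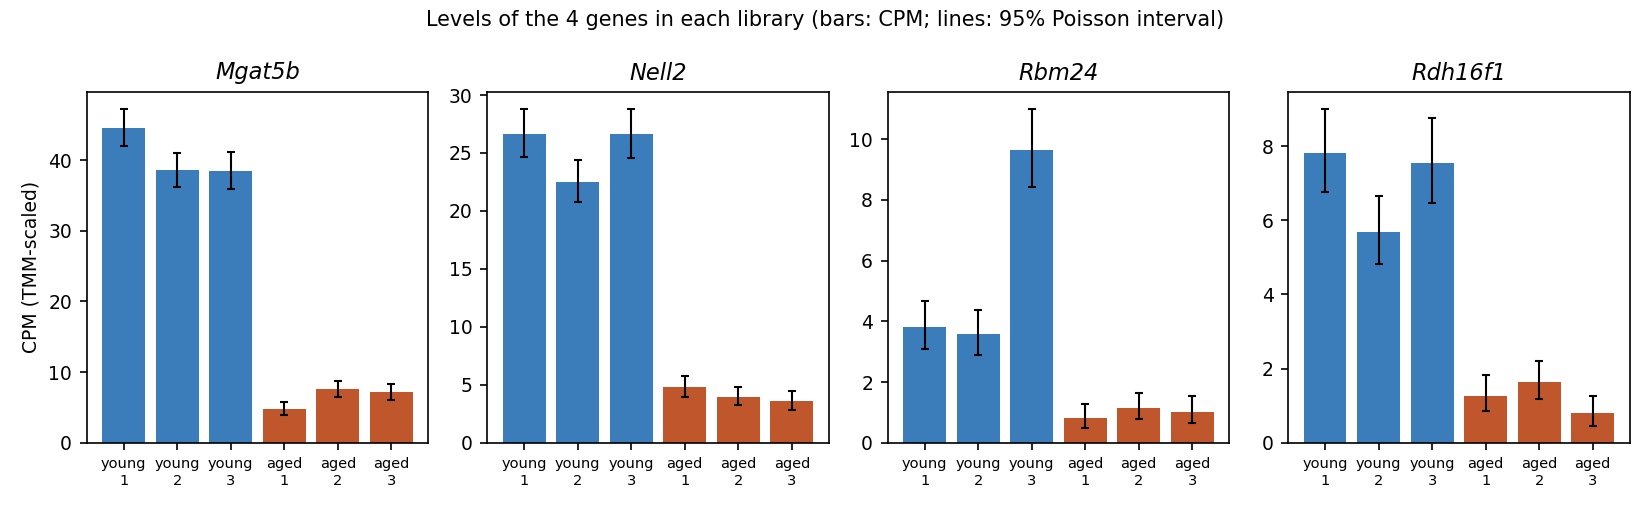
CPM of each gene in each library (bars, linear axis from 0, own scale per gene), with exact 95% Poisson intervals of the count as lines. The aged bars lie below all young bars in each panel, and for Rbm24 the bar of young replicate 3 at 9.64 CPM stands above the other young bars.

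Mgat5b, the gene of the O-mannose branching enzyme, stood at 44.6, 38.6 and 38.5 CPM in young replicates 1 to 3, from 1100, 1026 and 882 counts. In aged replicates 1 to 3 it stood at 4.83, 7.56 and 7.15 CPM, from 111, 199 and 153 counts. The young libraries lay within 1.16-fold of each other and the aged within 1.56-fold, while the lowest young library was 5.09-fold above the highest aged one. The mean was 40.6 ± 3.48 CPM in young and 6.51 ± 1.47 CPM in aged glomeruli (SD, n = 3), a 6.23-fold difference and a fitted log2 fold change of -2.64 ± 0.16 (SE).

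Nell2 stood at 26.7, 22.5 and 26.6 CPM in the young libraries (658, 599 and 610 counts) and at 4.79, 3.95 and 3.60 CPM in the aged libraries (110, 104 and 77 counts). Young and aged values were tightly grouped, with coefficients of variation of 9.38% and 14.9%, and did not overlap. The means were 25.3 ± 2.37 and 4.11 ± 0.614 CPM (SD, n = 3), 6.15-fold apart, with a fitted log2 fold change of -2.62 ± 0.14 (SE). The gene spans 453330 bases in M21, whereas the deposited table gives it a width of 309256 bases, so the authors' gene model was shorter than the M21 one.

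Rdh16f1 stood at 7.82, 5.68 and 7.55 CPM in the young libraries (193, 151 and 173 counts) and at 1.26, 1.63 and 0.794 CPM in the aged libraries (29, 43 and 17 counts). The groups did not overlap, and the aged libraries varied most in relative terms, 2.06-fold from lowest to highest. At 17 counts the 95% Poisson interval of aged replicate 3 ran from 9.90 to 27.2 counts, and that of aged replicate 2 from 31.1 to 57.9 counts. The means were 7.02 ± 1.17 and 1.23 ± 0.420 CPM (SD, n = 3), 5.71-fold apart, with a fitted log2 fold change of -2.49 ± 0.26 (SE). The reads carry no molecular identifiers and PCR copies count as separate reads, so these intervals cover counting error only.

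Rbm24 had the widest spread among young libraries. It stood at 3.81, 3.57 and 9.64 CPM in young replicates 1 to 3 (94, 95 and 221 counts) and at 0.828, 1.14 and 1.03 CPM in aged replicates 1 to 3 (19, 30 and 22 counts). Young replicate 3 was 2.61-fold above the mean of the other young libraries, and its counting interval of 193 to 252 counts did not meet theirs (76.0 to 115 and 76.9 to 116 counts). The young coefficient of variation was 60.6%, against 15.8% in aged glomeruli, and the groups still did not overlap. The means were 5.68 ± 3.44 and 0.998 ± 0.158 CPM (SD, n = 3), a 5.69-fold difference with a fitted log2 fold change of -2.49 ± 0.42 (SE). Without young replicate 3 the young mean was 3.69 CPM, the difference 3.70-fold and the log2 fold change -1.90 ± 0.27.

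Per kilobase of the longest coding transcript, the order of the levels in young glomeruli was Mgat5b at 9.52 ± 0.818, Nell2 at 7.85 ± 0.736, Rdh16f1 at 2.54 ± 0.421 and Rbm24 at 1.84 ± 1.11 CPM per kb (SD, n = 3). In aged glomeruli the order was the same, at 1.53 ± 0.345, 1.28 ± 0.191, 0.445 ± 0.152 and 0.323 ± 0.0511 CPM per kb. The Rdh16f1 values divide by 2766 exonic bases that all lie in exons of Rdh1 or Rdh9. The length that its counts came from is unknown. For the other genes too, whether reads in introns were counted is not given. Their M21 spans are 68086 bases for Mgat5b, 453330 for Nell2 and 12662 for Rbm24, longer than the transcripts used here. The per-kilobase levels and their order are therefore uncertain for all of these genes. On this exonic scale Mgat5b and Nell2 did not overlap in young libraries but did in aged ones, and Rdh16f1 and Rbm24 overlapped at each age. No numeric limit separated the chosen genes from the rest. Among other genes that were called, had a mean of at least 50 counts, no overlap between ages and no predicted name, the nearest in fold change are given without a test. Kcnh1, a voltage-gated potassium channel, lay between Nell2 and Rbm24 with a log2 fold change of -2.55 ± 0.24 (SE), and Mrgprh (-2.49 ± 0.52), Npas2 (-2.46 ± 0.35) and Gzma (-2.44 ± 0.17) followed Rdh16f1.

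The labelled tissue was checked against hand-written cell type markers. Of 20 podocyte markers, 19 were expressed and Foxc2 was listed at 0 in every library. Nephrin (Nphs1), the slit-diaphragm adhesion protein, fell from 1892 ± 99.7 to 872 ± 177 CPM (SD, n = 3; edgeR adjusted p 0.000236). All 19 podocyte markers tested were called lower in aged glomeruli, against 16.3% of all tested genes. Their log2 fold changes had a median of -1.27 and a range from -1.74 (Thsd7a) to -0.45 (Trpc6). Their summed level was 42699, 40053 and 37707 CPM in the young and 14712, 18174 and 19248 CPM in the aged libraries, 2.31-fold apart. In bulk RNA, fewer cells of a type and less of its RNA per cell cannot be told apart.

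Other cell types moved with age as well. Their calls stand beside 23.7% of all tested genes called higher and 16.3% called lower. Summed proximal tubule markers ranged from 2576 to 4607 CPM in young and from 7852 to 11381 CPM in aged libraries, with all 15 called higher, and distal nephron markers from 962 to 2100 and from 4170 to 4424 CPM, with all 10 called higher. Macrophage markers ranged from 740 to 845 and from 3293 to 5107 CPM, with 9 of 10 called higher. Endothelial markers ranged from 13850 to 15239 and from 12120 to 13129 CPM (10 of 14 called lower, 2 higher), and mesangial markers from 4140 to 4569 and from 4808 to 5039 CPM (5 of 9 higher, 3 lower). Parietal epithelial markers ranged from 139 to 143 CPM in young and from 233 to 261 CPM in aged libraries (4 of 5 higher). Lymphocyte markers ranged from 32.7 to 38.8 and from 14.8 to 26.4 CPM (6 of 10 lower, 1 higher), and of 9 nerve and Schwann cell markers 3 were tested and 1 was higher, with Th and Tubb3 at 0 in all libraries. The part of these shifts in the levels of the 4 genes was not tested.

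Each of the 4 genes was also set against the summed podocyte markers of its own library. Since the genes were chosen for their low aged levels, these ratios too are a description, and nothing is read from their remaining lower. Mgat5b stood at 104, 96.4 and 102 CPM per 100000 CPM of podocyte markers in the young libraries and at 32.9, 41.6 and 37.1 in the aged ones. On this scale the young spread was narrow (101 ± 4.13 against 37.2 ± 4.35, SD, n = 3), the groups did not overlap, and the difference was 2.71-fold.

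Nell2 stood at 62.4, 56.3 and 70.6 CPM per 100000 CPM of podocyte markers in young and at 32.6, 21.7 and 18.7 in aged libraries, without overlap, and the means were 2.59-fold apart. Rdh16f1 stood at 18.3, 14.2 and 20.0 in young and at 8.59, 8.98 and 4.13 in aged libraries, also without overlap and 2.42-fold apart. Rbm24 stood at 8.92, 8.92 and 25.6 in young and at 5.62, 6.27 and 5.34 in aged libraries. The Rbm24 groups did not overlap, and young replicate 3 set the size of the difference, which was 2.52-fold, or -1.33 on the log2 scale, and -0.64 without that library. With the mean log2 level of the markers or with the 10 lowest markers as the denominator, the 4 genes were between 2.33-fold and 2.77-fold lower in aged glomeruli.

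**Figure D3:**
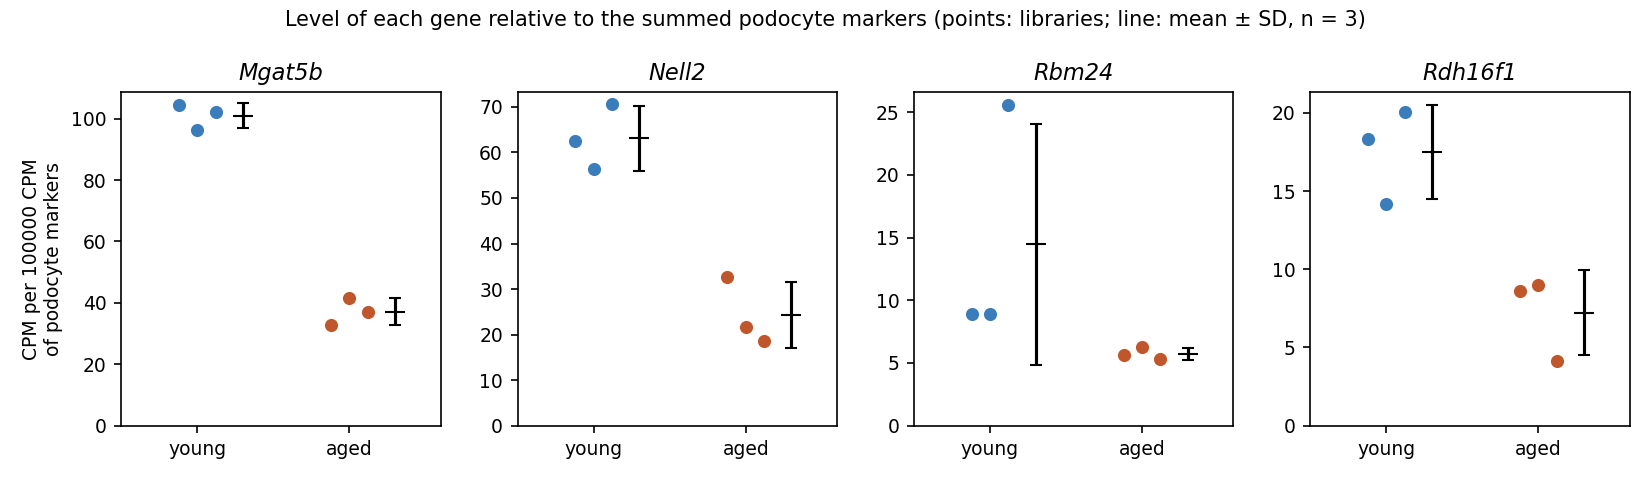
CPM of each gene per 100000 CPM of summed podocyte markers, 1 point per library, with the mean and SD (n = 3) of each age as a bar. Aged points lie below all young points in each panel, and in the Rbm24 panel 1 young point at 25.6 stands apart from the others at 8.92.

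The size of these differences was not particular to podocyte markers. Against lymphocyte markers they were 3.05-fold (Mgat5b), 3.23-fold (Nell2), 2.88-fold (Rbm24) and 2.97-fold (Rdh16f1). Against smooth muscle and renin markers they were 3.26-fold, 3.08-fold, 2.49-fold and 2.83-fold, in that order. Against each remaining list they were larger for every gene, the smallest being 4.86-fold (Rbm24, endothelial). The ratios describe whole libraries and do not assign any of the 4 genes to a cell type.

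The variation of Rbm24 among young libraries was shared by arteriolar genes. Acta2, smooth muscle actin, stood at 392, 320 and 813 CPM in the young and at 163, 185 and 174 CPM in the aged libraries. Myh11, smooth muscle myosin, stood at 204, 192 and 495 CPM in the young and at 87.8, 112 and 121 CPM in the aged libraries. Young replicate 3 was thus high for these genes too, 2.29-fold and 2.50-fold above the mean of the other young libraries. Ren1, renin, was at 131, 132 and 177 CPM in young and 122, 111 and 156 CPM in aged libraries, and it was not called (edgeR adjusted p 0.373).

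The summed smooth muscle and renin markers stood at 934, 815 and 1902 CPM in the young and at 497, 550 and 601 CPM in the aged libraries. They were 2.21-fold apart with all libraries and 1.59-fold apart without young replicate 3. Of the 7 markers, 6 were called lower with all libraries, as were 16.3% of all tested genes. Without young replicate 3, 4 markers were called lower, as were 2255 of 16060 tested genes. In that fit Myocd (edgeR adjusted p 0.123) and Akr1b7 (0.0576) no longer passed. Per 1000 CPM of these markers, Rbm24 stood at 4.08, 4.39 and 5.07 in young and at 1.66, 2.07 and 1.71 in aged libraries. On that scale young replicate 3 no longer stood apart: the young libraries lay within 1.24-fold of each other, against 2.87-fold when Rbm24 was set against podocyte markers. The log2 difference was -1.31 over the 6 libraries, and -1.22 when young replicate 3 was left out. This comparison was added after the data were seen. In young replicate 3 the marker sum was itself 2.18-fold above the mean of the other young libraries. Dividing by it narrows the young spread for that reason, so no source cell is read from it. Whether smooth muscle or renin cells carry the Rbm24 transcripts was not tested.

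The genes whose pattern was nearest to each member were found by the root mean square difference of log2 CPM, centred on the gene mean, over the 6 libraries; these genes are a description and share the libraries' age split. Nearest to Rbm24 were Nrip2 at 0.197, a nuclear receptor-interacting protein, Prkg2 at 0.240, a cyclic GMP-dependent protein kinase, and Glp1r at 0.249, the receptor of the incretin hormone. Nrip2 stood at 16.4, 15.6 and 31.8 CPM in young and 4.49, 5.24 and 5.28 CPM in aged libraries. Prkg2 stood at 7.70, 5.72 and 14.1 CPM in young and 1.66, 2.32 and 2.62 CPM in aged libraries, and Glp1r at 4.70, 3.50 and 8.95 CPM in young and 0.915, 1.14 and 1.63 CPM in aged libraries. All 3 had their highest value in young replicate 3.

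**Figure D4:**
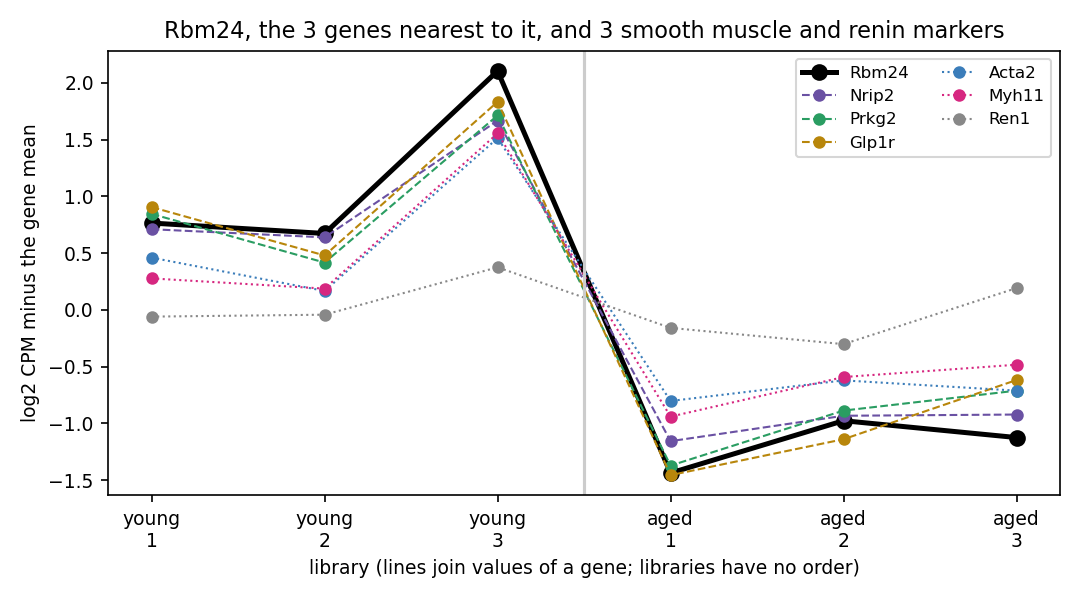
Log2 CPM minus the mean of the gene over the 6 libraries, for Rbm24, the 3 genes nearest to it in pattern (Nrip2, Prkg2, Glp1r) and the markers Acta2, Myh11 and Ren1. Each line has its highest value in young replicate 3, and Ren1 is the only line on which the ages overlap.

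Nearest to Mgat5b were Cacna2d2 at 0.207, an auxiliary calcium channel subunit, Gzma at 0.225, a protease of cytotoxic lymphocytes, and Gja3 at 0.231, a gap junction connexin. Nearest to Nell2 were Gzma at 0.237, the olfactory receptor gene Olfr1396 at 0.248 and Rdh16f1 at 0.267. Nearest to Rdh16f1 were Olfr1396 at 0.222, Npas2 at 0.231, a transcription factor of the circadian clock, and Nell2 at 0.267. Gja3 was the most abundant of these, at 51.5, 45.8 and 44.9 CPM in young and 7.84, 12.3 and 11.5 CPM in aged libraries. Between the members themselves, Nell2 and Rdh16f1 were nearest, Mgat5b lay at 0.322 from Nell2 and 0.383 from Rdh16f1, and Rbm24 lay between 0.506 and 0.534 from the other 3.

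Around Mgat5b, the wider set of glycan-branching and O-mannosylation genes held more genes called lower than higher in aged glomeruli. Of 23 tested genes of that list, 12 were called lower and 3 higher, that is 52.2% lower and 13.0% higher against 16.3% and 23.7% of all genes, with a median log2 fold change of -0.24. Mgat5, the relative of Mgat5b that branches N-linked sugars, fell from 746 ± 45.1 to 396 ± 56.5 CPM (log2 -0.92 ± 0.11 SE, edgeR adjusted p 0.000171, n = 3). Dag1, dystroglycan, whose O-mannose sugars are substrates of the pathway, fell from 1699 ± 82.1 to 908 ± 57.0 CPM (log2 -0.90 ± 0.08 SE, edgeR adjusted p 4.36e-05). Mgat4a, another N-glycan branching enzyme, fell by 1.02 ± 0.11 on the log2 scale (edgeR adjusted p 8.84e-05). Mgat3, which adds the bisecting sugar of N-glycans, rose by 1.39 ± 0.10 (edgeR adjusted p 1.77e-05), and B3gat2, a glucuronyltransferase, by 2.03 ± 0.31 (edgeR adjusted p 0.000725). Summed podocyte markers were 2.31-fold lower in the same aged libraries, more than the 1.89-fold of Mgat5 and the 1.87-fold of Dag1, and their part in this list was not tested.

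Nell2's relatives and receptors moved in different directions. Of 16 tested genes of the Nell and Slit-Robo list, 5 were called higher and 5 lower (31.2% each, against 23.7% and 16.3% of all genes), with a median log2 fold change of 0.03. Robo2, a Slit receptor that also binds the nephrin complex of podocytes, fell from 370 ± 26.4 to 171 ± 24.3 CPM (log2 -1.11 ± 0.11 SE, edgeR adjusted p 6.02e-05, n = 3). Robo1 stood at 90.4 ± 3.23 and 93.3 ± 11.3 CPM (edgeR adjusted p 0.723). Robo3, the axonal receptor to which Nell2 binds, held 2, 8 and 8 counts in the young libraries, at 0.244 ± 0.143 CPM, and rose to 1.30 ± 0.583 CPM in aged glomeruli (log2 2.41 ± 0.54 SE, edgeR adjusted p 0.00602). Nell1, the paralog, had at most 2 counts in any library and was not tested.

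Among the signalling partners on that list, Pak1, a kinase that acts below Rac, fell by 1.37 ± 0.11 on the log2 scale (edgeR adjusted p 2.4e-05). Slit2, a secreted Robo ligand, rose from 10.3 ± 2.76 to 25.8 ± 1.82 CPM (log2 1.32 ± 0.17 SE, edgeR adjusted p 0.000301), and Arhgap39, a GTPase-activating protein that binds Robo, rose by 0.61 ± 0.12 (edgeR adjusted p 0.00285). The number of genes called higher was 3 when aged replicate 2 or aged replicate 3 was left out.

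For Rbm24, the list of splicing and RNA stability regulators had 27 tested genes, of which 8 were called higher (29.6%, against 23.7% of all genes) and 7 lower (25.9%, against 16.3%), with a median log2 fold change of 0.05. Rbm38, the closest relative of Rbm24, stood at 13.1 ± 1.89 CPM in young and 9.83 ± 1.33 CPM in aged glomeruli, a log2 fold change of -0.41 ± 0.15 that did not pass (edgeR adjusted p 0.0571, n = 3). It passed in 6 of 16 alternatives, among them RLE size factors (edgeR adjusted p 0.0429), DESeq2 (adjusted p 0.0354) and the looser threshold of 0.1. Over the alternatives its adjusted p reached 0.177. Srrm4, a regulator of neural microexons, fell from 30.7 ± 3.28 to 9.70 ± 2.14 CPM (log2 -1.66 ± 0.16 SE, edgeR adjusted p 6.32e-05). Qk, the quaking RNA-binding protein, fell by 0.64 ± 0.10 on the log2 scale (edgeR adjusted p 0.000828), while Celf2 rose by 1.20 ± 0.10 (edgeR adjusted p 3.42e-05) and Rbm20, which controls titin splicing in heart, by 1.62 ± 0.22 (edgeR adjusted p 0.000337).

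Retinoid genes other than Rdh16f1 were called higher in larger number than lower. Of 24 tested genes of the retinoid list, 11 were called higher (45.8%, against 23.7% of all genes) and 2 lower (8.33%, against 16.3%), with a median log2 fold change of 0.48. Rdh16 and Rdh16f2, the relatives of Rdh16f1 in the same gene cluster, rose from 6.06 ± 1.56 to 27.5 ± 4.59 CPM (log2 2.17 ± 0.20 SE, edgeR adjusted p 4.34e-05) and from 1.89 ± 0.551 to 9.23 ± 2.08 CPM (log2 2.28 ± 0.25 SE, edgeR adjusted p 0.000102, n = 3). They were therefore opposite in direction to the counts under Rdh16f1. Summed proximal tubule markers rose over the same libraries, as given above, and their part in these values was not tested. Rdh1, Rdh9 and Rdh19 had at most 5, 0 and 7 counts in a library and were not tested.

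Stra6, the receptor for retinol uptake, was at 0.224 ± 0.119 CPM in young and 5.74 ± 1.30 CPM in aged glomeruli (log2 4.62 ± 0.36 SE, edgeR adjusted p 2.17e-05, n = 3). Aldh1a1, which makes retinoic acid from retinaldehyde, rose from 1.45 ± 0.808 to 14.9 ± 1.71 CPM (log2 3.33 ± 0.30 SE, edgeR adjusted p 3.87e-05). The genes called lower were Cyp26a1, which breaks down retinoic acid, from 3.46 ± 0.106 to 1.52 ± 0.708 CPM (log2 -1.19 ± 0.32 SE, edgeR adjusted p 0.0150), and Rdh11, a retinaldehyde reductase, at -0.27 ± 0.08 (edgeR adjusted p 0.0198). Rdh11 did not pass without young replicate 3 (edgeR adjusted p 0.0572), aged replicate 1 (0.063) or aged replicate 2 (0.076).

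**Figure D5:**
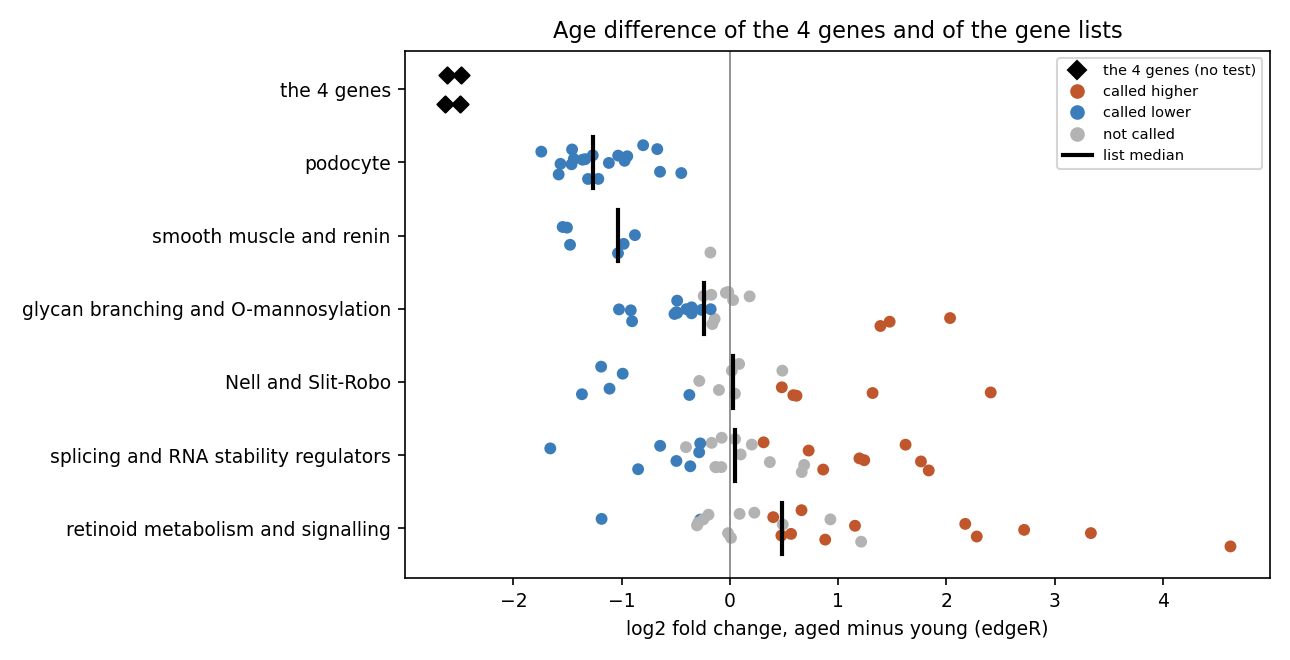
Fitted log2 fold change, aged minus young, of the 4 genes (diamonds, no test) and of each tested gene of the podocyte, smooth muscle and renin and 4 pathway lists (points, coloured by the call at an adjusted p under 0.05; bars are list medians). The podocyte list has its median at -1.27, with all its tested genes called lower, and the retinoid list at 0.48. The position of the diamonds is what chose them.

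Position in the genome was not used to choose the genes, so their neighbours were compared. Within 200 kb of the 4 genes lay 54 other genes of the tables, of which 20 were tested, 5 called higher and 6 lower, where 23.7% of all tested genes were called higher and 16.3% lower. Near Rbm24 the 1 tested gene was Cap2, an actin-regulating protein encoded 70753 bases away on the same strand, which fell from 8.21 ± 2.72 to 3.84 ± 0.529 CPM (log2 -1.09 ± 0.24 SE, edgeR adjusted p 0.00566, n = 3). Cap2 stood at 6.77, 6.51 and 11.3 CPM in the young libraries, so it too was highest in young replicate 3. Near Nell2 the 1 tested gene was Tmem117, which overlaps it on the opposite strand without shared exon bases and rose by 1.48 ± 0.19 (edgeR adjusted p 0.000255). Whether the counting used strand is not given in the sources used here, so the source of reads in the overlap is uncertain. Over the tables, 178 of 480 protein-coding genes inside the span of an opposite-strand gene only, with no shared exon, held 0 counts in every library (37.1%), against the 30.8% without an overlapping gene. For genes inside a same-strand gene's span without a shared exon the share was 95.4%. For genes with at least 90% of their exons inside opposite-strand exons only, it was 58.8% (30 of 51). The gene 1700129L04Rik, inside Nell2 on the same strand, held 1 count over all libraries.

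Of 8 tested neighbours of Mgat5b, 2 were called lower and 1 higher. Srsf2, a core splicing factor, changed by -0.39 ± 0.08 on the log2 scale (edgeR adjusted p 0.00332), Mxra7 by -0.36 ± 0.07 (edgeR adjusted p 0.00359) and Mfsd11 by 0.27 ± 0.09 (edgeR adjusted p 0.0377). The call of Mfsd11 was lost in 8 of 16 alternatives, among them DESeq2 (adjusted p 0.0709), with adjusted p up to 0.128. Of 10 tested neighbours of Rdh16f1, 3 were called higher and 3 lower. The genes called lower were Nab2, a transcriptional corepressor, at -0.65 ± 0.07 (edgeR adjusted p 0.000115), Gpr182, an endothelial receptor, at -0.43 ± 0.06 (edgeR adjusted p 0.000642) and Zbtb39 at -0.31 ± 0.07 (edgeR adjusted p 0.00788). The genes called higher near Rdh16f1 were Rdh16, 8458 bases away, Rdh16f2, 73780 bases away, and Lrp1, a large endocytic receptor, at 0.80 ± 0.12 (edgeR adjusted p 0.000536).

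Promoter sequence of 300 bases, from 250 before to 50 after the RefSeq start on GRCm38.p6, was found for Mgat5b and Rbm24 and not for Nell2 and Rdh16f1. The promoters are shown because these genes had lower levels in the same libraries, and capitals mark each CANNTG, the E-box motif bound by basic helix-loop-helix factors such as podocyte Tcf21, which reads the same on both strands. The Mgat5b window lies at chr11:116918613-116918912 and that of Rbm24 at chr13:46418050-46418349, each on the plus strand. The Mgat5b window holds the M21 start of the gene at 116918863. The whole Rbm24 window lies upstream of the M21 start at 46418434, so RefSeq and M21 place that start differently.
Mgat5b: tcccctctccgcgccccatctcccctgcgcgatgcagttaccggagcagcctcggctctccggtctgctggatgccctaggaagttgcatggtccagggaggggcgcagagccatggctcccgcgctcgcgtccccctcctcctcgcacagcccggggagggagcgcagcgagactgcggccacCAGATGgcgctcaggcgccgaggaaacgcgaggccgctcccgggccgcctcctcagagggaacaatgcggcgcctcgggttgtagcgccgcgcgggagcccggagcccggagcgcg
Rbm24: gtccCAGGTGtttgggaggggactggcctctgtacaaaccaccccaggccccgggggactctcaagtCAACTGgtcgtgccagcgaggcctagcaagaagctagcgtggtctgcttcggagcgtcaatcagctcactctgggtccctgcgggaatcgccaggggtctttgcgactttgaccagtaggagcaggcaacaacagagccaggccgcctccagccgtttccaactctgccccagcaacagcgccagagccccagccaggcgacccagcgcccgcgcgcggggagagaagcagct
The Mgat5b promoter held 1 CANNTG and the Rbm24 promoter 2, and 72.3% of 32851 mouse promoters of this length hold at least 1. Searched on both strands, GCGTGGGNG (held by 1.90% of promoters), TAATTA (5.29%) and TATAAA (13.6%) had 0 matches in either. The Mgat5b promoter was rich in G and C, at 73.0% with 36 CG dinucleotides, more GC than 94.3% of promoters. The Rbm24 promoter had 64.7% GC and 18 CG dinucleotides, more GC than 81.1%, against medians of 52.7% and 7 over all promoters. A match describes letters in these windows only.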

How the data were processed

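Each library had its own table, in which the authors gave 52636 Ensembl genes with a raw count of reads, a width and an RPKM, per the file headers. The deposited width equalled the GENCODE M21 gene span, introns included, for 85.6% of matched genes. Whether the authors' RPKM was divided by that width was not checked. RPKM was not analysed, and all fits used the deposited counts. GRCm38 and Partek are named per the submitters' processing notes. Aligner, counting rule, annotation and use of strand are not given in the sources used here. Symbols were found in M21 for 52489 genes, and the rest held 0.00844% of counts.

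Counts of 3 young and 3 aged libraries, grouped by the labels, were compared with edgeR 4.0.16 in R 4.3.3 (filterByExpr, TMM, quasi-likelihood F-test, Benjamini-Hochberg over 15721 genes, threshold 0.05, no covariates). The pipeline was tested on simulated data. SEs were derived by dividing the absolute log2 fold change by the square root of F. Intervals are exact 95% Poisson intervals. The depth was between 21162919 and 26791412 counts per library.

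The members and all gene lists were chosen with earlier results of these data known, and the members get no p-value. Besides the members, genes are named that were the 3 nearest in pattern, the next largest falls (mean of at least 50 counts, no overlap), set relatives and markers, the 2 called list genes with the smallest p in each direction, called neighbours within 200 kb (the 3 nearest per member; Nab2 and Lrp1 were added after their values were seen) and overlapping genes. Alternatives were other scalings and filters, DESeq2 1.42.0, limma 3.58.1 voom, a replicate block, each library left out, and thresholds of 0.01 and 0.1. The smooth muscle and renin comparison for Rbm24 was added after seeing the data, and the ratios to marker lists other than podocyte were not planned. The searches for the nearest patterns and the next largest falls left out predicted genes, immunoglobulin gene segments and genes with a mean under 50 counts.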

Additional observations from a re-analysis of the deposited data

How the results depend on the processing

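Of 288 alternative values, 278 were labelled as keeping their direction and size, 10 as moved and 0 as reversed. Many of these values are counts of called genes, which have no direction and could not reverse. Such a count kept its label within a set ratio, so 2708 genes called higher at an adjusted p under 0.01, instead of 3729, passed as kept. A fold change or ratio kept its size if it moved by less than the SD within groups on the log2 scale. Over all alternatives the log2 fold change ran from -2.76 to -2.46 for Mgat5b, from -2.74 to -2.53 for Nell2 and from -2.75 to -2.27 for Rdh16f1. Rbm24 depended on young replicate 3: over the fits with 1 library left out it ran from -2.74 to -1.90, and its log2 ratio to podocyte markers from -1.59 to -0.64. At an adjusted p under 0.01, genes called lower numbered 1498 instead of 2568, Nell and Slit-Robo genes called higher 3 instead of 5, and retinoid genes called lower 0 instead of 2. With 1 library left out, those last counts ran from 3 to 5 and from 1 to 2. Over the scalings, the median log2 fold change across genes lay between -0.04 and 0.01.

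The replicate numbers gave no clear sign of pairing: same-numbered libraries deviated together with correlations of 0.01, 0.05 and 0.11. Libraries of different numbers had correlations from -0.14 to 0.10. With 3 libraries per age these values cannot exclude a pairing. With the numbers as a replicate block, 3730 genes were called higher and 2546 lower, and the log2 fold change was -2.64 for Mgat5b, -2.62 for Nell2, -2.37 for Rbm24 and -2.49 for Rdh16f1. The aged libraries held 19 to 30 counts of Rbm24 and 17 to 43 of Rdh16f1, which limits the precision of their aged levels.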

Other observations

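Some genes named above besides the members had uneven young libraries. Mrgprh, an orphan receptor of the Mas-related family that came next after Rdh16f1 in the filtered order of fall, stood at 3.61, 1.92 and 8.16 CPM in young and at 0.566, 0.911 and 0.934 CPM in aged libraries, so its highest value was in young replicate 3. Npas2 stood at 8.19, 4.10 and 4.67 CPM in young and at 0.958, 1.40 and 0.654 CPM in aged libraries, with its highest value in young replicate 1. In both genes the ages did not overlap. Both genes were named by the search rules, and their uneven young libraries were singled out after their values were seen.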
